A study of Homo sapiens with 6 samples.

Results

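The plasminogen activator system and 6 members of the serpin family were followed in PC3 cells after knockdown of CTSZ, which encodes the lysosomal protease cathepsin Z. The 9 genes, of 61895 rows in the deposited table, were taken by symbol: the activators PLAU and PLAT, the urokinase receptor PLAUR, and the serpins SERPINE2, SERPINB1, SERPINB2, SERPINB6, SERPINB8 and SERPINH1. They were chosen by symbol with the expression differences between shCTSZ and shControl already known, so their differences between the groups are a description: they carry the errors of a model fitted over all genes, no p, and no claim that rests on one. PC3 is an established human prostate cancer line. Per the labels, 3 libraries came from cells with a lentiviral hairpin against CTSZ (genotype shCTSZ) and 3 from vector cells (genotype NC, here shControl). Both groups passed through lentiviral delivery and antibiotic selection as stable populations, in medium with serum. The labels do not say how many hairpins were used or whether libraries of a group were separate cultures, so the spread between them may be technical. Expression was given as TPM, a transcript abundance scaled to transcript length and to the library total.

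Urokinase (PLAU) and tissue plasminogen activator (PLAT) are secreted serine proteases that cut plasminogen into plasmin, a broad protease that dissolves fibrin and breaks down matrix. PLAUR, a surface protein held by a lipid anchor, keeps urokinase at the cell edge. Serpins block proteases by offering a loop as bait, and the cut loop traps the enzyme in a complex that receptors such as LRP1 clear. Urokinase and its receptor are well known in invasive prostate cancer cells, PC3 among them.

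CTSZ held 90.6, 94.7 and 93.2 TPM in the shControl libraries and 21.7, 18.3 and 19.7 TPM in the shCTSZ libraries, so the target was lower in every library labelled as knockdown. Of 7 epithelial and PC3 markers 5 reached a mean of 1 TPM, with a sum of 6348 to 6549 TPM in shControl and 8251 to 8480 TPM in shCTSZ. EPCAM (means of 0.15 and 0.10 TPM) and CDH1 (1.10 and 0.45 TPM) did not reach it. KRT19 did, with 3.64 TPM in shControl replicate 1 and under 1 TPM in every other library. Most of the sum came from KRT18 (3149 and 3859 TPM), VIM (1685 and 1759 TPM) and KRT8 (1256 and 2304 TPM). In contrast, KLK3 and FOLH1 of the androgen receptor axis were listed at 0 in all 6 libraries. Of 10 leukocyte markers none reached a mean of 1 TPM, with a sum of 0.54 to 1.52 TPM in shControl and 0.54 to 0.76 TPM in shCTSZ, and FCGR3A at 0. None of 7 fibroblast markers reached it either, with sums of 0.42 to 0.94 and 0.55 to 0.85 TPM and with DCN and LUM at 0. Of 6 endothelial markers CDH5 alone reached it, with sums of 1.38 to 2.04 and 2.01 to 2.52 TPM and KDR at 0. Mitochondrially encoded genes took 5.10 to 5.38% of TPM in shControl and 6.24 to 6.38% in shCTSZ. TPM keep no read totals, so depth is unknown, and fewer expressing cells cannot be told apart from less RNA per cell.

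Promoter sequences were read for 8 of the 9 genes from RefSeq on GRCh38.p14, and the 250 bases before the start are shown for 5. PLAU and PLAUR are the enzyme and its anchor, and SERPINB2 and SERPINH1 are inhibitor-family genes that were lower in shCTSZ. SERPINB8 lies in the same gene cluster as SERPINB2, and its groups overlapped. Each run is 5′ to 3′ on the strand of its gene, and capitals mark every match, on either strand, to any of 7 motifs. These are the AP-1 motif TGAGTCA, the Sp1 motif GGGCGG, the TATA box written as TATAAA, the CCAAT box, the E-box of the form CACGTG, the heat shock element core GAANNTTC and the NF-kB motif.
PLAU: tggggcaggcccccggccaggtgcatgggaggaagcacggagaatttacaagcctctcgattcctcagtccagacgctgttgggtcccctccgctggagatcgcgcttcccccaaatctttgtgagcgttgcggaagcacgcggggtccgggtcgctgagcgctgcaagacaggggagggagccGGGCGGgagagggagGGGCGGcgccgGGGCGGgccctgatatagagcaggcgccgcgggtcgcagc
PLAUR: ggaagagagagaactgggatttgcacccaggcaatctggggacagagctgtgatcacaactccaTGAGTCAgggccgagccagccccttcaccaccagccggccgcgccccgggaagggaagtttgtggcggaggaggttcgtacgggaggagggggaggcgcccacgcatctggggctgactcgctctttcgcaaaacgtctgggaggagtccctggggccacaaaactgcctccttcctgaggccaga
SERPINB2: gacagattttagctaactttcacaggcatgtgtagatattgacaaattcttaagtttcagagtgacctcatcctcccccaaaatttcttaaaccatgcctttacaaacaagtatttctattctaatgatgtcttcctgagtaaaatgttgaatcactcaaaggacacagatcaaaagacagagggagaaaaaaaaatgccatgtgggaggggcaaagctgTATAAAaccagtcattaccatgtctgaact
SERPINH1: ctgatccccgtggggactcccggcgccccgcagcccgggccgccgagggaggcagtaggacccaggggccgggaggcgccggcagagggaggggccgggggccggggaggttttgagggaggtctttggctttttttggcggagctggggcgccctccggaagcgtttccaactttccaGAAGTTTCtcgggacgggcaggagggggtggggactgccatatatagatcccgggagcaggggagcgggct
SERPINB8: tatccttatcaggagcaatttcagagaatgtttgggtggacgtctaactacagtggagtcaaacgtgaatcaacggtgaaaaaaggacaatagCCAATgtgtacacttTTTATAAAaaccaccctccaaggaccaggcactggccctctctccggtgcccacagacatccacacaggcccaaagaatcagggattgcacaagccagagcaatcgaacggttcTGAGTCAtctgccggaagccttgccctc
The windows are chr10:73910882-73911131 (plus strand), chr19:43670170-43670419 (minus strand), chr18:63887455-63887704 (plus strand), chr11:75562003-75562252 (plus strand) and chr18:63969831-63970080 (plus strand). PLAU and SERPINH1 have 2 starts each in that source, and the others 1. The start used lies within 100 bases of 3 of 5 GENCODE 29 transcript starts for PLAU, 5 of 16 for PLAUR, 3 of 6 for SERPINB2, 6 of 16 for SERPINH1 and 4 of 9 for SERPINB8.

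PLAU held 3 matches to GGGCGG between -66 and -35, counted back from the start, in a window of 68.8% GC. GGGCGG occurs in 42.6% of the 35116 promoter windows of the same length. PLAUR held TGAGTCA at -186 to -180, a string present in 4.20% of windows, and SERPINB8 held it too, at -28 to -22. SERPINB2 had TATAAA at -30 to -25 in a window of 37.2% GC, against a median of 58% over all windows, and TATAAA is in 10.7% of them. SERPINB8 had TATAAA at -140 to -135, overlapping a match on the other strand at -142 to -137, and CCAAT (32.0% of windows) at -157 to -153. SERPINH1 held GAAGTTTC at -71 to -64, a match to the heat shock element core found in 5.78% of windows. CACGTG is in 6.34% and the NF-kB motif in 5.67% of windows, and neither was in these 5. No motif among the 7 was held by all of PLAU, PLAUR, SERPINB2 and SERPINH1.

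Urokinase and its receptor were the most abundant of the 9 genes, and both were lower in shCTSZ. PLAUR (ENSG00000011422, GRCh38 chromosome 19, 43646095 to 43670547, minus strand) held 271.5, 269.8 and 286.7 TPM in shControl and 217.4, 224.4 and 213.8 TPM in shCTSZ. Every shCTSZ library was below every shControl library, and the mean went from 276 ± 9.3 to 218.5 ± 5.4 TPM (SD, n = 3 each), or 79.2% of control. The difference of mean log2(TPM + 1), shCTSZ minus shControl, was -0.34 (SE 0.037, 95% interval -0.42 to -0.25). That scale understates the change of low genes. A small RNA pseudogene inside PLAUR on the same strand, RN7SL368P, averaged 1.65 TPM in shControl and was listed at 0 in shCTSZ.

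PLAU (ENSG00000122861, chromosome 10, 73909177 to 73917497, plus strand) held 223.3, 208.6 and 216.0 TPM in shControl and 179.6, 195.0 and 201.8 TPM in shCTSZ. The groups did not overlap, though the highest shCTSZ library lay close to the lowest shControl library. Means were 216 ± 7.3 and 192 ± 11 TPM, 89.0% of control, with a log2 difference of -0.17 (SE 0.051, 95% interval -0.29 to -0.05). C10orf55 overlaps PLAU on the other strand at about 1 TPM (1.03 and 0.97), and strand use in counting is not given in the sources used here. PLAT (ENSG00000104368, chromosome 8, 42175233 to 42207724, minus strand) was near the floor of expression, with 2.01, 1.84 and 2.16 TPM in shControl and 2.20, 1.46 and 2.29 TPM in shCTSZ. Its groups overlapped, with shCTSZ replicate 2 the lowest library and the other two the highest. The log2 difference of PLAT was -0.02 (SE 0.17), and its interval of -0.42 to 0.38 leaves room for a change in either direction. In these libraries urokinase was the activator with a substantial transcript level.

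**Figure D1:**
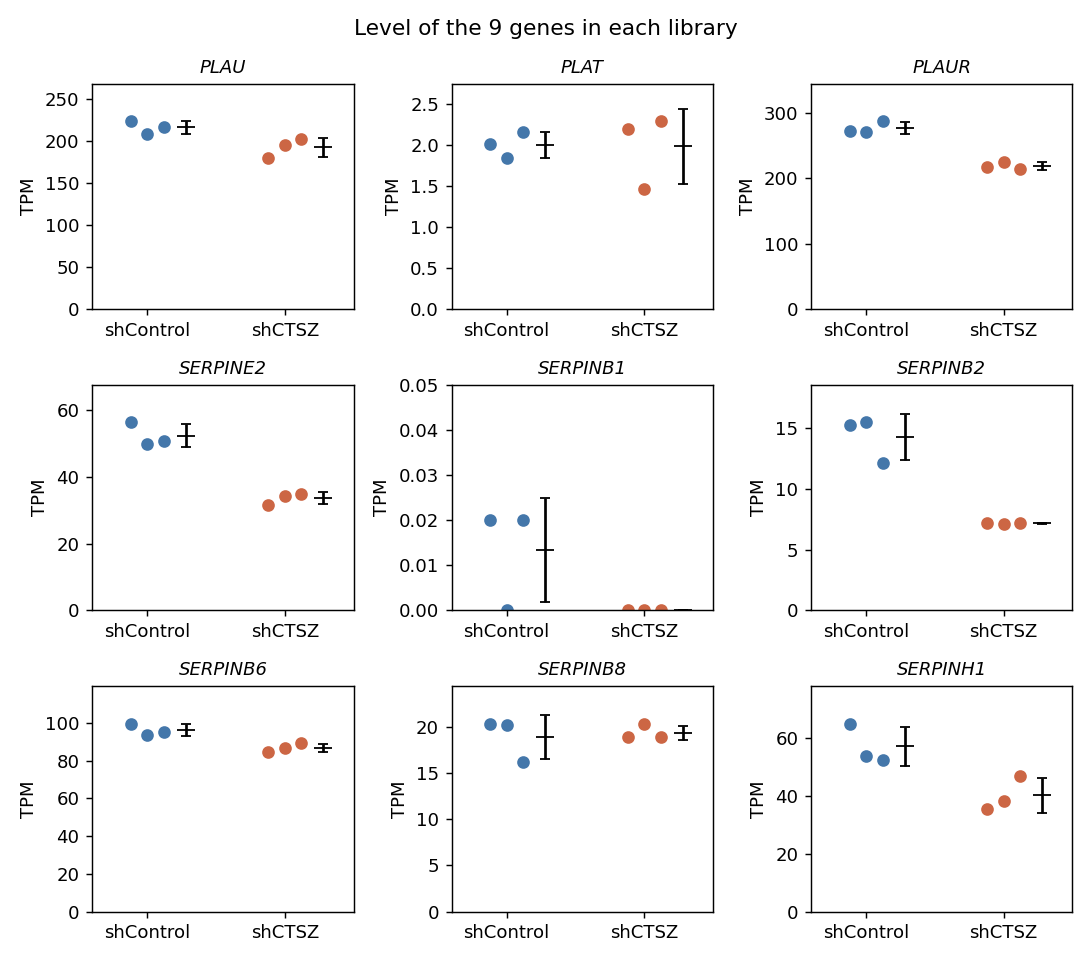
TPM of each of the 9 genes in each library (points), with mean and SD beside them (bars, n = 3), on a linear axis from 0 that differs between panels. PLAUR, PLAU, SERPINE2, SERPINB2, SERPINB6 and SERPINH1 have every shCTSZ library below every shControl library, while PLAT, SERPINB8 and SERPINB1 overlap.

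Among inhibitors of the activators, SERPINE2 and SERPINB2 stood lower in shCTSZ by more than PLAU or PLAUR. SERPINE2, also called protease nexin, is secreted and blocks thrombin, urokinase and plasmin (ENSG00000135919, chromosome 2, 223975112 to 224039319, minus strand). It held 56.2, 49.8 and 50.6 TPM in shControl and 31.5, 34.2 and 34.8 TPM in shCTSZ. The groups were far apart relative to their spread, at 52.2 ± 3.5 and 33.5 ± 1.7 TPM, 64.2% of control (log2 difference -0.62, SE 0.065, 95% interval -0.78 to -0.47). SERPINB2, plasminogen activator inhibitor type 2, blocks urokinase and stays largely inside the cell (ENSG00000197632, chromosome 18, 63871692 to 63903890, plus strand). It held 15.3, 15.4 and 12.1 TPM in shControl and 7.20, 7.11 and 7.16 TPM in shCTSZ. The shCTSZ libraries were nearly identical and stood at 50.2% of the control mean (14.2 ± 1.9 against 7.16 ± 0.045 TPM), with a log2 difference of -0.89 (SE 0.10, 95% interval -1.14 to -0.65). SERPINB10 overlaps SERPINB2 on the same strand and averaged 0.01 TPM in shControl and 0.04 TPM in shCTSZ.

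Among the intracellular clade B serpins, the groups of SERPINB6 did not overlap, while those of SERPINB8 did. SERPINB6, an inhibitor of cathepsin G and of trypsin-like proteases (ENSG00000124570, chromosome 6, 2948159 to 2972165, minus strand), was the most abundant of the serpins. It held 99.6, 93.6 and 95.1 TPM in shControl and 84.7, 86.5 and 89.1 TPM in shCTSZ. These groups were close but did not overlap, at 96.1 ± 3.1 and 86.8 ± 2.2 TPM (90.3% of control, log2 difference -0.15, SE 0.042, 95% interval -0.24 to -0.05). SERPINB8, which can block the convertase furin (ENSG00000166401, chromosome 18, 63969925 to 64019779, plus strand), held 20.4, 20.2 and 16.2 TPM in shControl and 18.9, 20.3 and 19.0 TPM in shCTSZ. All 3 shCTSZ libraries lay within the range of the controls (18.9 ± 2.4 and 19.4 ± 0.77 TPM, log2 difference 0.04, SE 0.095, 95% interval -0.19 to 0.26). Within libraries, SERPINB6 over SERPINB8 was 5.13 ± 0.65 in shControl and 4.48 ± 0.22 in shCTSZ, with overlapping groups. SERPINB1, an inhibitor of neutrophil elastase (ENSG00000021355, chromosome 6, 2832332 to 2842006, minus strand), was listed at 0.02, 0 and 0.02 TPM in shControl and at 0 in all 3 shCTSZ libraries. No fold is given for SERPINB1, which was below the filter of a mean of 1 TPM.

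SERPINH1, the collagen chaperone of the endoplasmic reticulum, belongs to the family by structure but blocks no protease (ENSG00000149257, chromosome 11, 75562056 to 75572783, plus strand). It held 64.9, 53.8 and 52.4 TPM in shControl and 35.3, 38.3 and 46.9 TPM in shCTSZ. The groups did not overlap, but each had 1 library standing above its other two, shControl replicate 1 and shCTSZ replicate 3. Means were 57.1 ± 6.9 and 40.2 ± 6.1 TPM, 70.4% of control, with a log2 difference of -0.50 (SE 0.12, 95% interval -0.79 to -0.21). SERPINH1 transcripts have the highest GC content of the 9 genes, a median of 62.8%. After a correction of every library for GC content and length of transcripts, its difference was -0.31.

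All 9 genes are accounted for as follows. SERPINB1 was left out of the fit for lack of expression, and of the 8 genes in it, 6 were past a limma adjusted p of 0.05 in the lower direction and none in the higher. Over all 14874 genes tested, 14.7% were past it in the lower direction and 34.5% in either. The same 6 genes had groups that did not overlap, which 21.2% of tested genes showed in the lower direction. Because the genes were listed with this contrast known, nothing is read from those counts. The count of 6 became 3 without shControl replicate 1, without shCTSZ replicate 1, without shCTSZ replicate 2, or with no filter on low values. It became 4 without the variance trend, with the replicate block, with GC and length corrected, or without shControl replicate 2 or 3. It was 5 with mitochondrially encoded genes left out of the scaling and with weights per library. Of 18 alternatives, PLAU was past the threshold under 7, SERPINB6 under 11 and SERPINH1 under 12, and PLAUR, SERPINE2 and SERPINB2 under all. Nothing is read from these calls either, nor from their order, since the same contrast was known when the genes were listed. The median log2 difference was -0.17 over PLAU, PLAT and PLAUR and -0.32 over the 6 serpins, or -0.50 over the 5 without SERPINB1, beside 0.04 over all genes tested.

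**Figure D2:**
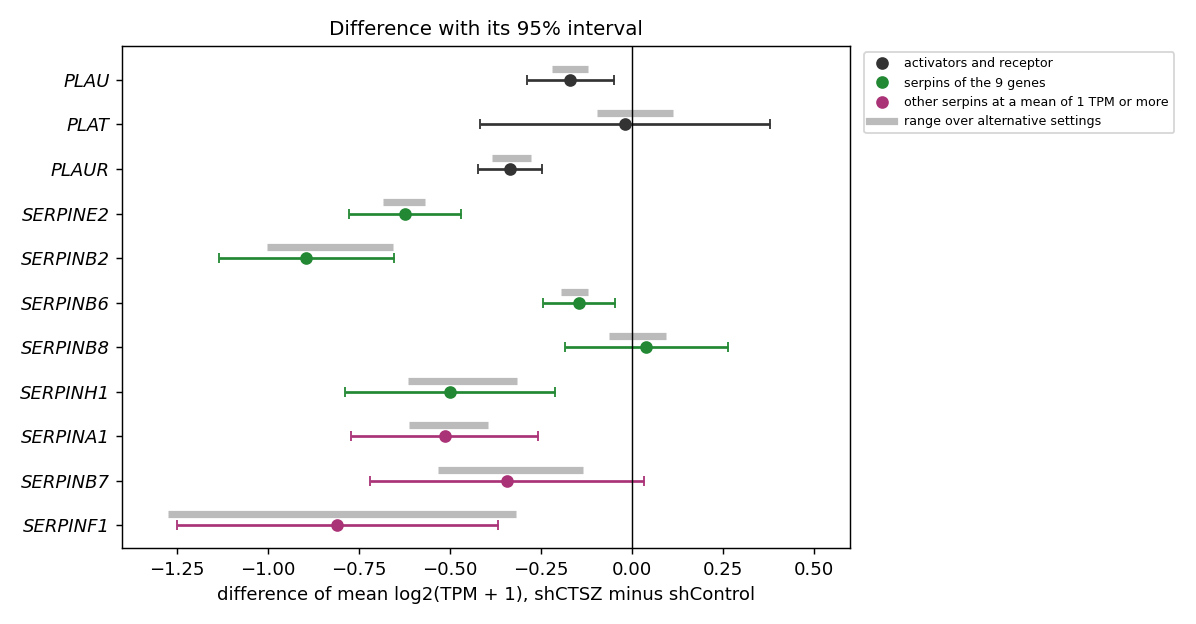
Difference of mean log2(TPM + 1), shCTSZ minus shControl, for the 8 genes in the fit and the 3 other tested serpins (points), with 95% intervals of the limma fit (thin bars) and the range over alternative settings (grey bars). SERPINB2 lies furthest left of the 9 genes at -0.89, and the intervals of PLAT, SERPINB8 and SERPINB7 include 0.

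In order of mean shControl TPM the genes ran PLAUR (276), PLAU (216), SERPINB6 (96.1), SERPINH1 (57.1), SERPINE2 (52.2), SERPINB8 (18.9), SERPINB2 (14.2), PLAT (2.0) and SERPINB1 (0.013). SERPINH1 and SERPINE2 overlapped between libraries in shControl, and no other neighbours in that order did. In shCTSZ the range of SERPINB2, 7.11 to 7.20 TPM, was far below that of SERPINB8, 18.9 to 20.3 TPM, with which it had nearly met in shControl (12.1 to 15.4 against 16.2 to 20.4 TPM). The summed TPM of PLAU, PLAT and PLAUR was 494 ± 13 in shControl and 413 ± 12 in shCTSZ. That of the 6 serpins was 239 ± 16 and 187 ± 9.7 TPM.

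Proteases and receptor were then set against inhibitors inside each library, where the scaling of the library cancels. PLAU over SERPINE2 was 3.98, 4.19 and 4.27 in shControl and 5.69, 5.70 and 5.80 in shCTSZ, so that every knockdown library had more urokinase transcript per SERPINE2 transcript. PLAU over SERPINB2 was 14.6, 13.5 and 17.9 in shControl and 24.9, 27.4 and 28.2 in shCTSZ, a mean 1.75 times as high. Over the sum of SERPINE2 and SERPINB2, the ratio of PLAU was 3.26 ± 0.17 in shControl and 4.72 ± 0.087 in shCTSZ (SD, n = 3 each). The receptor showed the same order, with PLAUR over SERPINE2 at 5.31 ± 0.43 and 6.53 ± 0.38 and PLAUR over SERPINB2 at 19.7 ± 3.5 and 30.5 ± 0.90. PLAU over PLAUR moved least among the ratios with PLAU, from 0.783 ± 0.035 to 0.880 ± 0.060, and its groups were separated only narrowly (highest shControl library 0.822, lowest shCTSZ library 0.826). These ratios are of transcripts, and follow from the differences given above. Protein and enzyme activity were not measured.

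Other serpins were mostly silent in these cells. Of 29 further serpin genes listed 3 reached a mean of 1 TPM, and 6 were listed at 0 in every library. Of the 3, 2 fell and none rose, where 14.7% of all tested genes fell. SERPINA1, the inhibitor of neutrophil elastase known as alpha-1 antitrypsin, held 17.1, 14.4 and 12.6 TPM in shControl and 9.49, 10.01 and 10.2 TPM in shCTSZ. It fell from 14.7 ± 2.3 to 9.91 ± 0.38 TPM (log2 difference -0.51, SE 0.11, limma adjusted p = 0.0113). SERPINF1, a secreted serpin that blocks no protease, fell from 2.48 ± 0.27 to 1.00 ± 0.34 TPM (log2 difference -0.81, adjusted p = 0.0153, and -1.27 and -0.32 at pseudocounts of 0.1 and 5). The other one tested, SERPINB7, held 1.88 ± 0.17 and 1.27 ± 0.18 TPM (adjusted p = 0.138). Of its 17 alternatives it was past the threshold only with moderation without the trend (adjusted p = 0.0291, over the alternatives 0.0291 to 0.301). The median over the 3 was -0.51, beside 0.04 over all genes tested. SERPINI1, an inhibitor of tissue plasminogen activator in neurons, held 0.41 ± 0.14 and 0.60 ± 0.20 TPM and was not tested.

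The clade B members lie in 2 gene clusters, and only some genes of each were expressed. On chromosome 6, from 2832332 to 2972165, SERPINB6 was the 1 tested gene of 3, next to SERPINB1 and to SERPINB9, the granzyme B inhibitor, at 0.067 ± 0.032 TPM in shControl and 0.037 ± 0.040 TPM in shCTSZ. On chromosome 18, from 63476761 to 64019779, SERPINB2, SERPINB7 and SERPINB8 were tested of 10 serpins, and SERPINB3 and SERPINB11 were listed at 0 throughout. SERPINB5, or maspin, a serpin of epithelial cells at the same cluster, held 1.00 ± 0.36 and 0.87 ± 0.22 TPM with overlapping groups. Within that cluster SERPINB2 stood at 50.2% of control and SERPINB8 at 102%. Of the non-serpin neighbours within 250 kb, VPS4B on chromosome 18 rose from 13.7 ± 0.90 to 17.0 ± 0.36 TPM (limma adjusted p = 0.0153, and 0.0593 without shCTSZ replicate 3, over the alternatives 0.0112 to 0.0593) and KDSR held 35.7 ± 1.7 and 34.6 ± 0.21 TPM. Beside SERPINB6, NQO2 fell from 40.9 ± 0.49 to 32.5 ± 3.2 TPM (adjusted p = 0.0135). The call of NQO2 was lost without shControl replicate 2 or 3 (0.0507 and 0.0503, over the alternatives 0.00588 to 0.0507). TUBB2A fell from 85.2 ± 3.4 to 50.4 ± 1.3 TPM (adjusted p = 0.000157), while RIPK1 held 27.2 ± 2.6 and 28.8 ± 1.3 TPM. BPHL, beside TUBB2A, fell from 10.2 ± 1.1 to 7.85 ± 0.77 TPM (limma adjusted p = 0.042) and was not followed under the alternatives. The remaining tested neighbours, WRNIP1 on chromosome 6 and BCL2 on chromosome 18, were not past the threshold (adjusted p = 0.51 and 0.202). Over all genes tested 34.5% were past it in either direction. These neighbours were named after their values were seen.

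PLG, which encodes the substrate of the activators, was listed at 0 in all 6 libraries, and VTN, the gene of the matrix protein vitronectin (overlapped by SARM1 on the other strand), held 0.19 ± 0.031 and 0.17 ± 0.21 TPM. Transcripts of plasminogen binding sites were abundant. ANXA2, the annexin of the plasminogen-binding tetramer, held 2679 ± 31 and 2717 ± 58 TPM (log2 difference 0.02, 95% interval -0.03 to 0.08), with overlapping groups. It was past the threshold only with quantile normalization, out of 18 alternatives (adjusted p = 0.0294, over the alternatives 0.0294 to 0.815). A pseudogene on its other strand, RPL36AP44, averaged 0.687 and 2.54 TPM. S100A10, the partner of ANXA2, fell from 544 ± 13 to 480 ± 17 TPM (log2 difference -0.18, SE 0.035, limma adjusted p = 0.00855), and lost the call with quantile normalization (adjusted p = 0.0631, over the alternatives 0.00369 to 0.0631). PLGRKT, a membrane receptor for plasminogen, held 19.7 ± 1.4 and 22.1 ± 1.8 TPM (adjusted p = 0.179), and the clearance receptor LRP1 6.91 ± 0.55 and 6.25 ± 0.64 TPM (adjusted p = 0.367). MRC2, a collagen uptake receptor that associates with PLAUR, fell from 29.6 ± 1.5 to 22.3 ± 0.27 TPM (log2 difference -0.39, adjusted p = 0.00266, and -0.22 with GC and length corrected). Of 14 listed genes 10 were tested, with a median of -0.01. Of these 2 fell and none rose, against 14.7% and 19.8% of all genes.

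Partners of the urokinase receptor divided. Of 13 listed genes 8 were tested, of which 3 rose and 3 fell, against 19.8% and 14.7% of all genes, with a median of 0.20. ITGAV, the alpha subunit of vitronectin receptors, rose from 12.3, 10.7 and 8.0 TPM to 16.9, 17.9 and 18.2 TPM (log2 difference 0.74, SE 0.14, limma adjusted p = 0.0075). Of its beta partners, ITGB3 rose from 3.25 ± 0.14 to 5.06 ± 0.20 TPM (log2 difference 0.51, adjusted p = 0.00735, and 0.29 at a pseudocount of 5). ITGB1 held 238 ± 14 and 265 ± 12 TPM and was not past the threshold (log2 difference 0.16, adjusted p = 0.0564). ITGB5 fell from 263 ± 11 to 237 ± 7.9 TPM (log2 difference -0.15, adjusted p = 0.031). ITGB5 lost its call under 8 of 18 alternatives, 4 of which left out 1 library: shControl replicate 2, shControl replicate 3, shCTSZ replicate 1, or shCTSZ replicate 3 (adjusted p up to 0.0938). ITGA3, a laminin receptor subunit that binds PLAUR, fell from 453 ± 16 to 343 ± 27 TPM (log2 difference -0.40, adjusted p = 0.00309, and -0.26 with GC and length corrected), and ITGA5 fell with a log2 difference of -0.48. EGFR, a growth factor receptor that PLAUR can signal through, rose from 118 ± 13 to 147 ± 9.9 TPM (log2 difference 0.32, adjusted p = 0.0275). The call of EGFR was lost under 7 of 18 alternatives, 4 of them leaving out replicate 2 or 3 of either group (adjusted p up to 0.104).

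Of 22 matrix metalloproteases and inhibitors 9 were tested, with a median of -0.0028. Of these 1 rose and 3 fell, against 19.8% and 14.7% of all genes. MMP10 and MMP3, stromelysins that plasmin can activate, went opposite ways. MMP10 fell from 13.1, 11.4 and 10.97 TPM to 7.58, 7.27 and 4.84 TPM (log2 difference -0.78, SE 0.16, limma adjusted p = 0.00973). MMP3 rose from 12.3, 16.1 and 10.8 TPM to 19.0, 18.8 and 19.5 TPM (log2 difference 0.53, SE 0.13, adjusted p = 0.0201). The call of MMP3 was lost under 6 of 18 alternatives: with no filter, without shControl replicate 1 or 3, and without any 1 shCTSZ library (adjusted p 0.0556 to 0.0796 in these, 0.00672 to 0.0796 over all). These genes are similar in sequence, and RSEM divides reads between such copies by estimate. Both overlap the pseudogene WTAPP1 on the other strand. MMP17, a membrane-anchored protease, fell from 31.0 ± 1.9 to 17.3 ± 0.53 TPM (log2 difference -0.81, adjusted p = 0.000354). TIMP1, a broad metalloprotease inhibitor, fell from 391 ± 14 to 336 ± 7.4 TPM (log2 difference -0.22, adjusted p = 0.00447), but not once GC and length were corrected (-0.08, adjusted p = 0.219, over the alternatives 0.00165 to 0.219).

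Of 37 further serine proteases and small inhibitors 11 were tested, with a median of 0.13. Of these 3 rose and 1 fell, against 19.8% and 14.7% of all genes. SLPI, a secreted inhibitor of leukocyte elastase, fell from 1.89, 1.40 and 2.36 TPM to 0.16, 0.45 and 0 TPM (log2 difference -1.26, SE 0.24, limma adjusted p = 0.00812, and -3.001 and -0.40 at pseudocounts of 0.1 and 5). With a mean of 1.04 TPM over the 6 libraries, SLPI passed the filter of 1 TPM only through shControl. Nothing is therefore read from its call. APP, whose longer forms carry a Kunitz inhibitor domain, rose from 573 ± 28 to 663 ± 11 TPM (log2 difference 0.21, adjusted p = 0.0075). Its relative APLP2 (263 ± 11 to 287 ± 2.4 TPM) and the protease gene PRSS23 (68.5 ± 3.5 to 77.5 ± 0.96 TPM) also rose, but lost their calls under 10 and 9 of 18 alternatives. PRSS23 overlaps FZD4 on the other strand. The count of 4 was 2 on leaving out shControl replicate 3 or any shCTSZ library. Among 24 listed genes of coagulation and fibrin 12 were tested, with a median of 0.08. None of them rose and 1 fell, against 19.8% and 14.7% of all genes. F12, coagulation factor XII, alone fell, from 18.6 ± 0.77 to 15.8 ± 1.1 TPM (log2 difference -0.22, adjusted p = 0.0453), and was past the threshold under 8 of 18 alternatives. Its difference was -0.03 with GC and length corrected, and it was past the threshold without shCTSZ replicate 2 but not without any other library. It overlaps GRK6 on the other strand, which fell too (65.5 and 50.9 TPM).

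**Figure D3:**
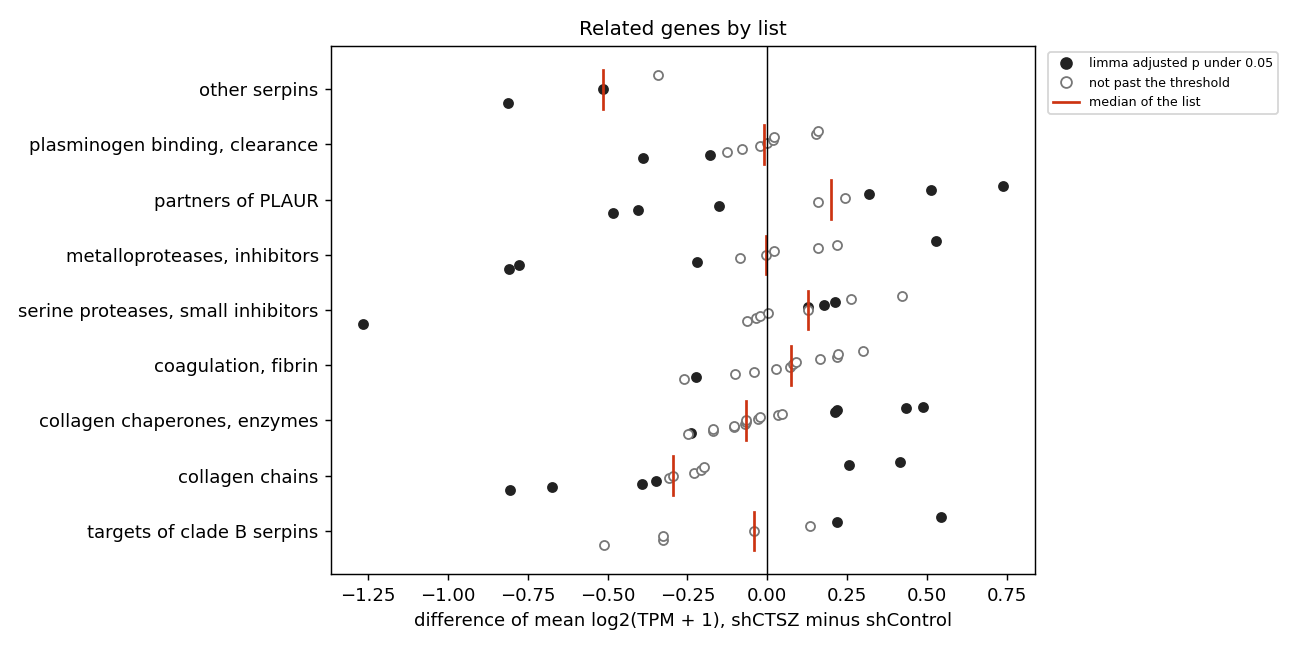
Difference of mean log2(TPM + 1), shCTSZ minus shControl, for each tested gene of 9 related lists, filled where the limma adjusted p was under 0.05, with the median of each list as a red line. The other serpins all lie left of 0, with a median of -0.51, whereas partners of PLAUR and metalloproteases lie on both sides.

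Genes that work beside SERPINH1 on collagen went both ways. Of 20 collagen chaperones and modifying enzymes 17 were tested, with a median of -0.07. Of these 4 rose and 1 fell, against 19.8% and 14.7% of all genes. PLOD2, a lysyl hydroxylase for collagen cross-links, rose from 103 ± 7.8 to 145 ± 6.0 TPM (log2 difference 0.49, SE 0.063, limma adjusted p = 0.00184). P3H2, a prolyl hydroxylase, rose from 50.3 ± 3.4 to 58.6 ± 0.17 TPM (adjusted p = 0.0228), and FKBP14, a prolyl isomerase of the same compartment, from 4.73 ± 0.52 to 6.77 ± 1.0 TPM (adjusted p = 0.0379). P3H2 lost its call without any 1 shCTSZ library (adjusted p up to 0.0669), and FKBP14 under 8 of 18 alternatives (up to 0.12). TXNDC5 rose from 76.8 ± 1.9 to 89.1 ± 2.6 TPM (adjusted p = 0.00811) but shares sequence with the readthrough BLOC1S5-TXNDC5, at 2.50 and 10.04 TPM. FKBP10, a collagen chaperone like SERPINH1, was the 1 that fell, from 169 ± 9.6 to 144 ± 14 TPM (log2 difference -0.24, adjusted p = 0.0463). FKBP10 was past the threshold under 6 of 18 alternatives, with a difference of -0.10 once GC and length were corrected, and on leaving out 1 library it passed only without shCTSZ replicate 3. The count of 5 was 2 without shCTSZ replicate 1 and 3 without any other library but shControl replicate 1.

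Of 22 collagen chains 11 were tested, with a median of -0.30. Of these 2 rose and 4 fell, against 19.8% and 14.7% of all genes. COL12A1, a chain on fibril surfaces, fell from 25.1 ± 1.3 to 15.4 ± 1.1 TPM (log2 difference -0.67, SE 0.074, limma adjusted p = 0.00103). The basement membrane chain COL18A1 fell from 37.5 ± 2.1 to 28.3 ± 0.44 TPM (adjusted p = 0.00254) and COL6A2 from 37.0 ± 0.65 to 28.9 ± 2.4 TPM (adjusted p = 0.00803). The call of COL6A2 was lost once GC and length were corrected (adjusted p = 0.0912, over the alternatives 0.00325 to 0.0912). COL18A1 overlaps SLC19A1 on the other strand. COL5A2, a chain of fibrillar collagen, rose from 99.6 ± 8.6 to 133 ± 0.66 TPM (log2 difference 0.41, adjusted p = 0.00335, and 0.25 with GC and length corrected). COL1A1 and COL3A1, chains of the fibrillar collagens that SERPINH1 is known to fold, were under a mean of 1 TPM over the 6 libraries and not tested. COL1A1 held 1.43 ± 0.23 and 0.467 ± 0.23 TPM with no overlap, and COL3A1 0.343 ± 0.055 and 0.307 ± 0.11 TPM.

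Proteases that clade B serpins can block were partly present. Of 15 listed genes 7 were tested, with a median of -0.04. Of these 2 rose and none fell, against 19.8% and 14.7% of all genes. CASP4, an inflammatory caspase, rose from 51.8, 47.1 and 47.6 TPM to 68.6, 74.0 and 72.4 TPM (log2 difference 0.54, SE 0.054, limma adjusted p = 0.000747). CTSL, a lysosomal cysteine protease, rose from 58.9 ± 3.7 to 68.7 ± 1.7 TPM (log2 difference 0.22, adjusted p = 0.021). Leaving out 1 library ended that call in 5 of 6 cases, all but shControl replicate 1 (adjusted p 0.0526 to 0.0678, over the alternatives 0.0116 to 0.0678), and the count of 2 was then 1. FURIN, the convertase that SERPINB8 can block, held 34.2 ± 2.4 and 34.2 ± 1.0 TPM (adjusted p = 0.98) and was past the threshold only with GC and length corrected (0.19, adjusted p = 0.034, over the alternatives 0.034 to 0.996).

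Likeness between genes was described by the root mean square (RMS) difference of log2(TPM + 1) profiles over the 6 libraries, each relative to its shControl mean, among 8399 named genes at a mean of at least 10 TPM. For PLAU the nearest were CCS (RMS 0.017), AHNAK2 (0.017) and USE1 (0.020), and for PLAUR they were TSC22D4 (0.019), NOP53 (0.019) and MAPK8IP1 (0.021). SERPINE2 was nearest to HLA-B (0.017), which went from 193 to 125 TPM, then to RHOB (0.043) and GOLGA4 (0.045). For SERPINH1 they were ID2 (0.048), METTL25B (0.054) and ACAD11 (0.081). Among the 8 genes in the fit PLAU and SERPINB6 were the closest pair (0.035), and SERPINB2 and SERPINB8 the furthest apart (0.66).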

How the data were processed

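RNA-seq of 6 PC3 libraries was used. Per the submitters' processing notes, fastp, RSEM and the build GRCh38.p13 were involved. No source used here names the aligner, the annotation release or the use of strand. The values deposited by the authors are TPM, scaled to transcript length and library total, so read counts are lost. Columns were matched to samples by name and grouped by their description. Names came from a gene ID table (61369 of 61541 IDs matched), positions, GC content and length from GENCODE 29, and promoters from RefSeq on GRCh38.p14.

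limma 3.58.1 in R 4.3.3 was fitted to log2(TPM + 1) over the 14874 rows with a mean of at least 1 TPM, with group as the only term, moderation along a trend of variance on mean, and p-values adjusted over all of them (Benjamini-Hochberg) at 0.05. The fit was tested on simulated data. The genes and lists were chosen with earlier results of these data known. In each related list the 4 smallest adjusted p past the threshold were named, with direct partners named whatever their values. One gene of the serpin list is not reported here. ITGB1, ITGB5, EGFR, FKBP10, FURIN, COL1A1, COL3A1, SERPINB7, SERPINB3, SERPINB11 and cluster neighbours were named after their values were seen. Alternatives were pseudocounts of 0.1 and 5, no filter or one at 5 TPM, scaling and normalization, moderation without trend, library weights, a replicate block, GC and length correction, and leaving out each library. Figures used Python 3.11.15 and matplotlib 3.10.9.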

Additional observations from a re-analysis of the deposited data

How the results depend on the processing

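The direction of PLAU, PLAUR, SERPINE2, SERPINB2, SERPINB6 and SERPINH1 was the same under all 18 alternatives, which is no sign of stability where groups that do not overlap fix it. PLAT ranged from -0.10 to 0.11 and SERPINB8 from -0.06 to 0.09 (log2), so neither kept a sign. The median over the 6 serpins was -0.32, and -0.39 to -0.26 on leaving out 1 library. With quantile normalization it was -0.53, since SERPINB1 is then without a value. The other serpins (2 called) had 1 with a filter at 5 TPM, which leaves out SERPINF1. The serine protease list (4 called) had 2 called with median-of-ratios scaling, without the variance trend and with the replicate block, and 2 to 3 on leaving out 1 library. The coagulation list (1 called) had 0 with no filter on low values and with the replicate block, 2 with quantile normalization, and 0 to 1 on leaving out 1 library. At no filter F12 was the gene lost, and the cause was not tested. Collagen chaperones (5 called) had 3 with no filter, where the cause was not tested either, and 2 to 5 on leaving out 1 library. Targets of clade B serpins (2 called) had 1 to 2 on leaving out 1 library. Calls over all genes ranged from 3717 to 5335. The replicate numbers gave no sign of pairing the libraries, since same-numbered libraries had correlations of their deviations of -0.09, -0.02 and -0.04. Such correlations cannot settle how the cultures were handled. With the replicate block 4026 genes were called, against 5135 without, and 4 of the 9 genes against 6. Low genes depend on the pseudocount: with 0.1 and 5, SERPINF1 was at -1.27 and -0.32, SLPI at -3.001 and -0.40, and ITGB3 at 0.62 and 0.29. Depth is unknown, so genes listed at 0 cannot be given a limit.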
